A study of Mus musculus with 3 samples.

Results

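The interferon regulatory factors (IRFs) were examined as 8 DNA-binding genes, Irf1, Irf2, Irf3, Irf4, Irf5, Irf7, Irf8 and Irf9, and 1 gene of a binding protein, Irf2bp2. The members were chosen by gene name, and all 9 were found among the 55536 annotated genes in the files. The libraries were made from C57BL/6J mouse bone-marrow-derived macrophages, primary cells grown from marrow, after 30 min in 100 ng/ml Lipid A, the lipid anchor of lipopolysaccharide that activates Toll-like receptor 4. Total RNA of the cytosolic fraction was sequenced after ribosomal RNA was depleted. There is 1 group of 3 libraries, called replicates 1, 2 and 3, which the labels name biological replicates with 1 donor record between them. Errors therefore cover only how far these samples lie apart, which may be technical. Sex and age were not collected. Cells without Lipid A were not analysed here. All values are levels at a single time, and no gene is called induced.

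IRFs share an amino-terminal DNA-binding domain that recognises GAAA-rich elements of interferon genes and interferon-stimulated genes. IRF3, IRF5 and IRF7 wait in the cytoplasm until kinases and adaptors downstream of pattern-recognition receptors lead to their phosphorylation, while IRF9 is the DNA-binding part of the ISGF3 complex. IRF1 and IRF8 are themselves products of regulated genes in macrophages, IRF2 competes with IRF1 for its sites, and IRF2BP2 is a corepressor that binds IRF2.

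The libraries held 23403552, 50435201 and 35785896 expected counts of genes in replicates 1, 2 and 3. Nuclear protein-coding genes took 22.3, 34.4 and 24.3% of the TPM, a unit of transcript abundance scaled by transcript length and by the total of each library. A given messenger RNA therefore has a higher TPM in replicate 2, and 8 of the 9 members had their highest TPM there. Levels between genes are given in TPM, and libraries are compared in CPM, counts relative to a library total that TMM factors adjust. All 10 fixed macrophage markers had a mean of 10 TPM or more, led by Lyz2 at 5224 TPM. The 8 stromal markers were all highest in replicate 1, with a summed 266 CPM against 0.262 and 1.07 in replicates 2 and 3. Among the other marker lists, the highest genes were Batf3 at 1.52 TPM for dendritic cells, Ighm at 5.15 for B cells, Cd4 at 24.4 for T and NK cells and S100a9 at 17.3 for neutrophils. The other 6 T and NK cell markers had 0.07 TPM or less, and 5 of the 8 neutrophil markers 0.157 TPM or less.

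The promoters of the members were read first, since 3 of them hold motifs known from interferon and NF-kB signalling. RefSeq (GRCm38.p6, the assembly also called mm10) gave 12 start windows for the 9 members, and the 250 bases before each start were searched on both strands. The gamma-activated site (GAS, TTCNNNGAA) is the motif of STAT dimers, the interferon-stimulated response element (ISRE, GAAANNGAAA) that of IRFs and ISGF3, and the kB motif that of NF-kB. Over all 32851 RefSeq windows of this length, 7.02% held a GAS, 2.98% an ISRE and 7.25% a kB match. Among the 12 member windows, 3 held a GAS, 1 an ISRE and 2 a kB match. The 3 windows with a match are shown 5′ to 3′ on the plus strand, with the matches in capitals.

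Irf1, chr11:53769764-53770013: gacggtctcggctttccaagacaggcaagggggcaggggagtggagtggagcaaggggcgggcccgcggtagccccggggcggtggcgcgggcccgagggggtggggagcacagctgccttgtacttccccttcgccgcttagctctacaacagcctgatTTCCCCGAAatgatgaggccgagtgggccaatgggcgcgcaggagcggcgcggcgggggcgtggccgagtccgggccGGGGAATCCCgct

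Irf8, chr8:120736108-120736357: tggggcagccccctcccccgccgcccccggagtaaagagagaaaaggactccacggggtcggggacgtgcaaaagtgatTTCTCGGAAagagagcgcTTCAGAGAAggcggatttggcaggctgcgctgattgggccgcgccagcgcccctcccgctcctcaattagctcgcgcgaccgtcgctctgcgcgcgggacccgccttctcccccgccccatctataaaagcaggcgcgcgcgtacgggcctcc

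Irf2, chr8:46739495-46739744: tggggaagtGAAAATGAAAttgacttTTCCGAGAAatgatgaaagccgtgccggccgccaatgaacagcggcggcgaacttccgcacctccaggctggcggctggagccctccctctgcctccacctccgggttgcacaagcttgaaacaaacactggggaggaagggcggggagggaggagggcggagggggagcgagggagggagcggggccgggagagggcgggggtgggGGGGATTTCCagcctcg

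The Irf1 window held TTCCCCGAA, a GAS match, 90 to 82 bases before the start and GGGGAATCCC, a kB match, 13 to 4 bases before it. The Irf8 window held a pair of GAS matches, TTCTCGGAA at 171 to 163 bases and TTCAGAGAA at 153 to 145 bases before the start. The Irf2 window was the only member window with an ISRE match, GAAAATGAAA at 241 to 232 bases, and it also held the GAS match TTCCGAGAA at 224 to 216 and the kB match GGGGATTTCC at 17 to 8 bases. No matches overlapped. The windows of Irf3, Irf4, Irf5, Irf7, Irf9 and Irf2bp2 held no match to these motifs, which says nothing about the factors themselves. The letters searched for the kB motif are not given here, so its matches and their background share depend on that choice. A match is a description of sequence, and binding was not measured here.

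The first question was which IRFs these macrophages carried. Irf1 was the most abundant member and Irf8, Irf7 and Irf5 followed, while Irf4 was lowest (plot of levels by library). Of the 9 members, 8 had 10 TPM or more in every library, a level that 15.0% of the 22015 nuclear protein-coding genes reached.

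**Figure D1:**
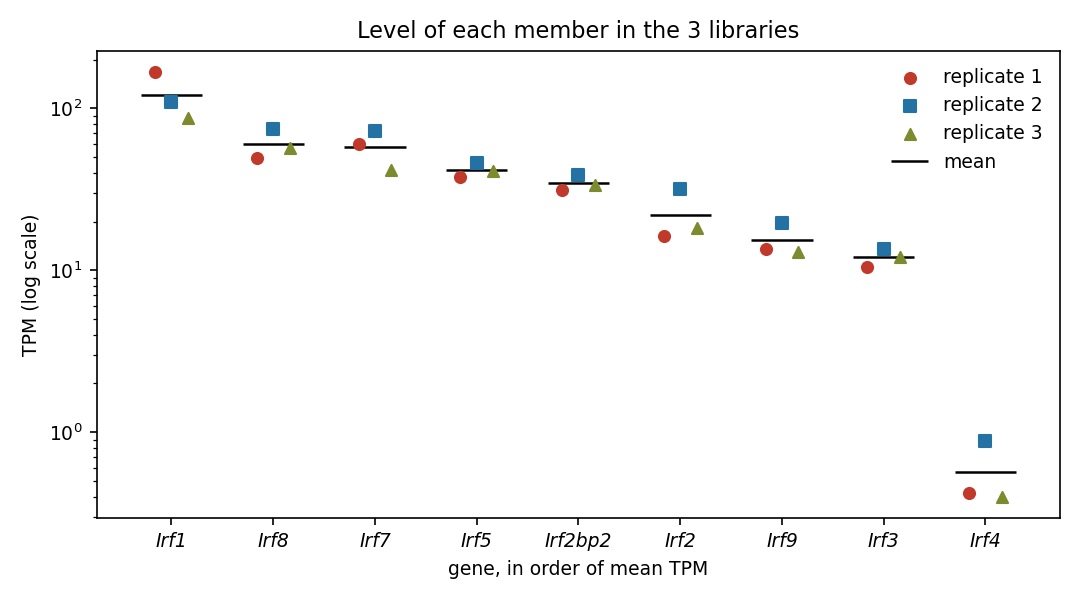
TPM of each member (log axis) in replicates 1, 2 and 3, ordered by mean TPM. Points are libraries and black lines are means; Irf1 is highest at 86.8 to 168 TPM and Irf4 lowest at 0.40 to 0.88 TPM.

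Among the regulated factors, Irf1 (ENSMUSG00000018899.16, chr11:53770014-53778374, plus strand, mm10, 10 exons in its main transcript Irf1-202) had 168, 109 and 86.8 TPM in replicates 1, 2 and 3, a mean of 121 ± 41.8 (SD, n = 3, here and below). It had rank 321 of 22015 nuclear protein-coding genes by mean TPM. Irf8 (ENSMUSG00000041515.10, chr8:120736358-120756694, plus strand), a factor of myeloid differentiation that pairs with PU.1, had 49.4, 74.2 and 57.3 TPM, or 60.3 ± 12.7, and had rank 675. All 3 Irf1 values lay above all 3 Irf8 values. Irf2 (ENSMUSG00000031627.9, chr8:46739732-46847458, plus strand) had 16.4, 31.6 and 18.3 TPM, or 22.1 ± 8.29, with replicate 2 well above the other two.

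Among the factors activated by phosphorylation, Irf7 (ENSMUSG00000025498.15, chr7:141262706-141266481, minus strand), which drives interferon-alpha genes, had 60.5, 72.1 and 41.4 TPM, or 57.98 ± 15.5. Its range overlapped that of Irf8. Irf5 (ENSMUSG00000029771.12, chr6:29526625-29541871, plus strand), a factor of inflammatory cytokine genes, had 37.4, 45.9 and 40.9 TPM, or 41.4 ± 4.26. Irf3 (ENSMUSG00000003184.15, chr7:44997648-45002848, plus strand), the factor of the first wave of interferon-beta, had 10.5, 13.5 and 12.1 TPM, or 12.03 ± 1.51. Irf3 was thus the lowest of these 3 genes, and within each library Irf7 stood 5.77, 5.33 and 3.42 times above Irf3 in replicates 1, 2 and 3.

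Irf9 (ENSMUSG00000002325.15, chr14:55603571-55610030, plus strand) had 13.6, 19.7 and 12.9 TPM, or 15.4 ± 3.73. Its range overlapped that of Irf3 in TPM, but rescaled to nuclear protein-coding genes Irf9 had 60.8, 57.3 and 53.3 TPM and Irf3 had 47.0, 39.3 and 49.8 TPM, with no overlap. This order was not kept in the second transcript table described below, where Irf9 had 3.02 and Irf3 3.10 TPM in replicate 3. Stat2, encoding a partner of IRF9 in ISGF3, had 22.2 ± 4.12 TPM. Irf2bp2 (ENSMUSG00000051495.7, chr8:126588296-126593986, minus strand) had 31.3, 38.97 and 33.7 TPM, or 34.6 ± 3.95. It was the highest gene of its family, ahead of Irf2bpl at 5.26 ± 1.49 and Irf2bp1 at 3.85 ± 0.868 TPM.

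Irf4 (ENSMUSG00000021356.10, chr13:30749226-30766976, plus strand), known from B cells, plasma cells and dendritic cells, had 0.42, 0.88 and 0.40 TPM, or 0.567 ± 0.272. These values rest on 89, 259 and 115 counts, with 95% exact Poisson intervals of 71.5 to 109.5, 228 to 293 and 94.9 to 138 that cover counting error only. Within each library Irf8 stood 118, 84.4 and 143 times above Irf4, and Irf5 stood 89.0, 52.1 and 102 times above it. The summed B and plasma cell markers had 14.0, 16.0 and 11.0 CPM and the summed dendritic cell markers 7.53, 5.72 and 8.19 CPM in replicates 1, 2 and 3. Their part in the Irf4 level was not tested, and in bulk RNA fewer cells of a type cannot be told apart from less RNA per cell.

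The order Irf1, Irf8, Irf7, Irf5, Irf2bp2, Irf2, Irf9, Irf3, Irf4 was compared pair by pair on log2(TPM + 1), a scale that understates differences of low genes. Of the 8 neighbouring pairs, 7 stood in the same order in 3 of 3 libraries, the exception being Irf8 and Irf7, in order in 2 of 3. The ranges over libraries stood apart for 2 neighbouring pairs, Irf1 over Irf8 by 0.96 ± 0.68 and Irf3 over Irf4 by 3.06 ± 0.14. The TPM ranges of the other 6 overlapped. Of those, 5, all but Irf8 and Irf7, nevertheless kept 1 order within every library, for example Irf2bp2 over Irf2 by 0.68 ± 0.33 and Irf5 over Irf2bp2 by 0.25 ± 0.02. With TPM rescaled to nuclear protein-coding genes, the ranges stood apart for 6 of the 8 pairs, and those of Irf8 and Irf7 and of Irf5 and Irf2bp2 overlapped. Over all 36 pairs, 35 kept 1 order in every library and 30 had ranges apart. The exact two-sided sign-flip permutation test gave p = 0.25 for 7 of the neighbouring pairs, the smallest that 3 libraries allow, and 0.75 for Irf8 and Irf7 (Benjamini-Hochberg adjusted over the 8 pairs, 0.286 and 0.75).

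How far each member varied between the libraries was then asked on counts. By the ratio of the highest to the lowest library, Irf1 varied most and Irf7 next, both with replicate 1 highest, whereas Irf8, of similar abundance to Irf7, was nearly level (plot of deviations by library). Each gene's counts were compared with Poisson sampling by a chi-square test over all genes whose mean count was at least 10, with Benjamini-Hochberg adjustment at 0.05. All 9 members were tested and 8 were called variable, in a background where 67.9% of the 13237 genes tested were called. Among the 5163 genes whose mean count was at least 1000 (deep genes below), 87.1% were called, and 7 of the members were of that depth. The ratio of the highest to the lowest library, in TMM-scaled CPM, had a median of 1.18 over the members, 1.19 over the deep genes and 1.27 over all genes tested. The members as a group were thus close to the background in both the share called and the size of the ratio.

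**Figure D2:**
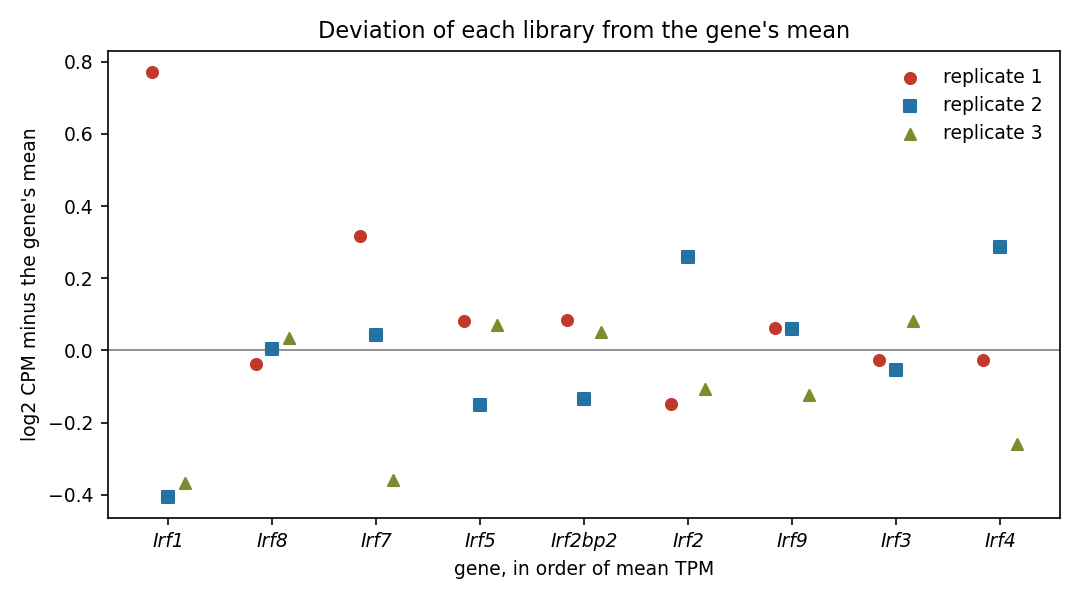
Log2 CPM (TMM-scaled, prior count 0.5) of each library minus the mean of the gene, for the 9 members in order of mean TPM. Each point is a library; Irf1 lies at 0.77 in replicate 1 and at -0.41 and -0.37 in replicates 2 and 3, and Irf8 lies between -0.04 and 0.03.

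Irf1 had 624, 276 and 284 CPM in replicates 1, 2 and 3, from 14247, 14728 and 9830 counts. Replicate 1 was 2.26 times the lowest library, a ratio that 0.833% of the deep genes reached, and replicates 2 and 3 lay close together. The chi-square value was 6167, and the tagwise biological coefficient of variation was 31.6%, the highest of the members (median over genes, 17.3%), followed by Irf4 at 27.6% and Irf7 at 17.8%. Without replicate 1, Irf1 was no longer called (adjusted p = 0.0814 by the same chi-square test). Within a library Irf1 stood 3.39, 1.47 and 1.52 times above Irf8 in TPM, and 10.2, 3.45 and 4.75 times above Irf2, so replicate 1 also stood apart in ratios that need no scaling between libraries.

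Irf7 had 211, 174 and 132 CPM from 4813, 9308 and 4578 counts, highest in replicate 1 and lowest in replicate 3 with a ratio of 1.60 (chi-square test, Benjamini-Hochberg adjusted p = 1.78e-113). Irf1 and Irf7 were the 2 members with a ratio of 1.5 or more, which 8.64% of the deep genes had. Irf7 stayed called when each library was left out in turn. Irf8 had 263, 271 and 277 CPM, a ratio of 1.05 that 93.4% of the deep genes equalled or exceeded. It was called at an adjusted p of 0.0168 and not called without replicate 1 (0.208) or replicate 3 (0.0994).

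Irf2 had 66.0, 87.5 and 67.9 CPM, with replicate 2 above the others by a ratio of 1.33 to the lowest (adjusted p = 2.72e-32), and it was not called without replicate 2 (0.554). Irf5 had 144, 123 and 143 CPM and Irf2bp2 had 309, 266 and 302 CPM, both with replicate 2 low (ratios 1.18 and 1.16, adjusted p = 1.60e-19 and 1.28e-32). Neither was called without replicate 2 (0.826 and 0.251). Replicate 2, the deepest library, thus stood apart in opposite directions for Irf2 and for Irf5 and Irf2bp2, and replicates 1 and 3 were alike for all 3. In the second transcript table described below, the ratios of Irf5 and Irf2bp2 were both 1.09. Irf2bp2 deviated there by 0.063, -0.058 and -0.004 on the log2 CPM scale, so its replicates 1 and 3 were less alike.

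Irf9 had 60.4, 60.3 and 53.1 CPM, with replicate 3 low (ratio 1.14, adjusted p = 5.65e-05), and was not called without replicate 3 (0.964). Irf3, with 24.6, 24.1 and 26.5 CPM, was the 1 member not called (ratio 1.10, adjusted p = 0.122). With factors computed over nuclear protein-coding genes it was called at 0.0383. Irf4 had 3.90, 4.85 and 3.32 CPM (ratio 1.46, adjusted p = 0.00369) and was not called without replicate 2 (0.413) or replicate 3 (0.122). By highest library, 5 members were highest in replicate 1, 2 in replicate 2 and 2 in replicate 3, where 26.5, 44.1 and 29.5% of all tested genes and 24.2, 48.2 and 27.6% of the deep genes were highest. Counting only called genes, 16.8, 32.0 and 19.1% of all tested genes were highest there.

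Cxcl2, a neutrophil chemokine gene, was the nearest of all nuclear protein-coding genes to the Irf1 pattern, at a Euclidean distance of 0.49 over the 3 libraries in TMM log2 CPM. It had 553, 371 and 320 CPM. Ly6e, an interferon-stimulated gene, followed at 0.51 with 457, 321 and 261 CPM, and Pim1, a serine/threonine kinase gene, at 0.57 with 478, 305 and 372 CPM. In all 3 replicate 1 was highest, which the choice by nearness to Irf1 favours. This distance sets level and pattern together over only 3 libraries, and it is a description.

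The genes around the IRFs were taken from fixed lists of pathway roles, chosen with earlier results of these data known. All 15 kinases and adaptors upstream of IRF3, IRF5 and IRF7 had 1 TPM or more in every library. Myd88, the adaptor through which Toll-like receptors reach IRF5, had 23.4 ± 3.48 TPM, and Ikbke, encoding the kinase IKK-epsilon, had 23.3 ± 1.33 TPM. Tbk1, encoding the main IRF3 kinase, had 18.0 ± 4.86 TPM, and the lowest was Traf3, a signalling adaptor, at 4.19 ± 1.12 TPM. The list had 13 of 15 called, near the 87.1% of deep genes and above the 67.9% of all tested genes. Of the 15 tested, 6 were called and highest in replicate 1, 6 in replicate 2 and 1 in replicate 3. Of all tested genes, 16.8, 32.0 and 19.1% were called and highest there.

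Among the partners that bind DNA with IRFs, Junb and Jun, encoding AP-1 subunits, had 327 ± 36.9 and 145 ± 22.2 TPM, and Spi1, encoding the IRF8 partner PU.1, had 67.8 ± 17.5 TPM. Ikzf3, a lymphoid factor gene, was lowest at 0.010 TPM. Of 11 partners 10 were tested and 8 called, against 67.9% of all tested genes and 87.1% of the deep genes. Of the 10 tested, 5 were called and highest in replicate 1, against 16.8% of all tested genes. Of the regulators of IRF turnover or activity, Stub1 and Rbck1, which encode ubiquitin ligases, had 20.5 ± 3.88 and 11.9 ± 2.13 TPM. All 4 genes of the list were called, 2 highest in replicate 2 and 2 in replicate 3. In the background, 67.9% of all tested genes and 87.1% of the deep genes were called.

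Most known target genes of IRFs that could be tested were highest in replicate 1 (plot of target genes by library). Irf1, Irf7, Irf5, Irf2bp2 and Irf9, 5 of the 9 members, were also highest in that library. Of all tested genes 26.5% and of the deep genes 24.2% were highest there. For the last 3 of these members the lead was small. Irf5 had 144 CPM in replicate 1 and 143 in replicate 3, and Irf2bp2 had 309 and 302. Irf9 had 60.4 CPM in replicate 1 and 60.3 in replicate 2. Of 18 interferon and target genes 15 were deep enough to test, neither interferon among them. All 15 were called, where 67.9% of all tested genes and 87.1% of the deep genes were. Of the 15, 13 were highest in replicate 1 and 2 in replicate 2. In all genes tested, 16.8% were called and highest in replicate 1. The median deviation of the tested targets was 0.32, -0.21 and -0.27 on the log2 CPM scale in replicates 1, 2 and 3, against -0.02, 0.03 and -0.01 over all tested genes. Without replicate 1, which decides this count, 12 of the 15 were called, 7 highest in replicate 2 and 5 in replicate 3. Of all genes tested then, 56.7% were called, and 32.3 and 24.4% were called and highest there. Without replicate 2, 14 of the 15 were called, all highest in replicate 1, against 17.2% of all tested genes. Without replicate 3, 13 were called, 12 highest in replicate 1 and 1 in replicate 2, against 23 and 30.1% of all tested genes. The stromal markers were also highest in replicate 1, and their part in these values and in those of Irf1 and Irf7 was not tested.

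**Figure D3:**
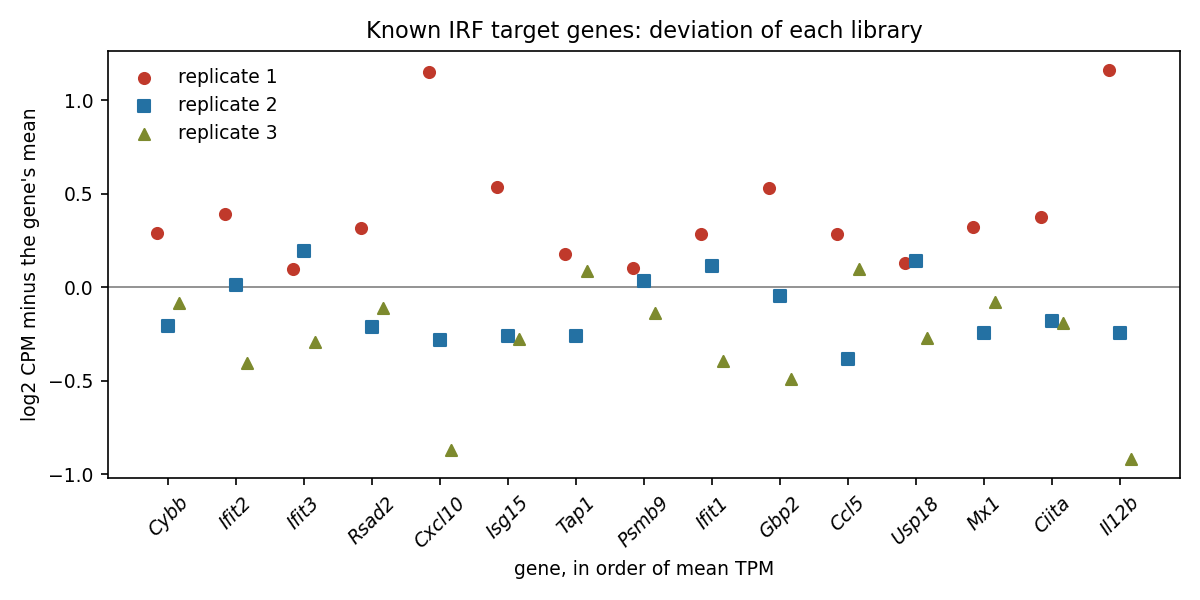
Log2 CPM (TMM-scaled, prior count 0.5) of each library minus the mean of the gene, for the 15 known IRF target genes tested, in order of mean TPM. Replicate 1 is the highest point for 13 genes, and Ifit3 and Usp18 are highest in replicate 2.

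Cybb, encoding an oxidase subunit, had the highest level of the list at 105 ± 10.3 TPM, and 985, 699 and 759 CPM in replicates 1, 2 and 3. Ifit2, an interferon-induced antiviral gene, had 87.7 ± 24.3 TPM, and 698, 537 and 401 CPM. At the other end, Ifna4 had no count in any library. Ifnb1, the interferon-beta gene, had 0.16, 0.16 and 0.15 TPM and fell under the filter on low counts. Ifnb1 is named here by choice after its value was seen.

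Transcripts were described next, from the percent of each gene's TPM in the first transcript table. Of the members with several transcripts, Irf8, Irf1, Irf5 and Irf2 were carried mainly by 1 protein-coding transcript, and Irf3, Irf4, Irf7 and Irf9 were mixed. Irf8-201 held 99.2, 99.2 and 98.8% of Irf8 in replicates 1, 2 and 3, Irf1-202 held 91.3, 91.4 and 84.8% of Irf1, Irf5-201 held 91.8, 90.6 and 88.4% of Irf5, and Irf2-201 held 81.0, 83.2 and 82.2% of Irf2. In the second table Irf1-202 held less, 80.8, 59.4 and 67.6% of Irf1. Irf2bp2 has 1 transcript. Of the 7 members with at least 2 transcripts and 1 TPM or more, all 7 had the same top transcript in every library, where 87.2% of 8732 such genes did. In both transcript tables together it was the same for 5 of 7 members and 77.6% of genes.

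Irf7 was divided between Irf7-201 with 53.8, 58.5 and 54.2%, Irf7-203 with 23.4, 24.5 and 22.8% and Irf7-202 with 15.9, 13.0 and 15.0%. Irf7-203 differs from Irf7-201 by an internal exon 96 bases shorter and a last exon that runs 477 bases further, and Irf7-202 lacks an exon of 93 bases. The order of these 3 was the same in every library and in both tables, but Irf7-203 was lower in the second table, at 12.8, 14.0 and 12.6%. Irf9 was divided between Irf9-205, with 56.3, 56.8 and 49.7%, and Irf9-202, with 33.0, 37.7 and 41.5%. In the second table Irf9-205 had 49.0, 47.3 and 33.9% and Irf9-202 had 37.2, 43.8 and 54.5%, so Irf9-202 led in replicate 3 there.

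Irf3 was the member with the largest share in transcripts without a protein-coding biotype, all of them with a retained intron. They took 27.0, 20.8 and 37.1% of Irf3, or 28.3 ± 8.26%, a share that 13.3% of the genes reached (plot of transcript shares). The median of such transcripts was 3.12% over those genes and 5.32% over the 7 members, of which 4 lay above the genes' median. In the second table the share was 38.1, 48.0 and 54.1%. The top transcript was the protein-coding Irf3-201 in the first table, at 30.3, 42.5 and 37.3%, and the retained-intron Irf3-207 in the second, so the leading Irf3 transcript differed between the tables while the scaled total of the gene in the second table was 1.05, 1.00 and 1.05 times that in the gene table. Bcl2l12 overlaps the Irf3 locus on the opposite strand, with 99, 252 and 162 counts, and whether counting used the strand is not given in the sources used here.

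**Figure D4:**
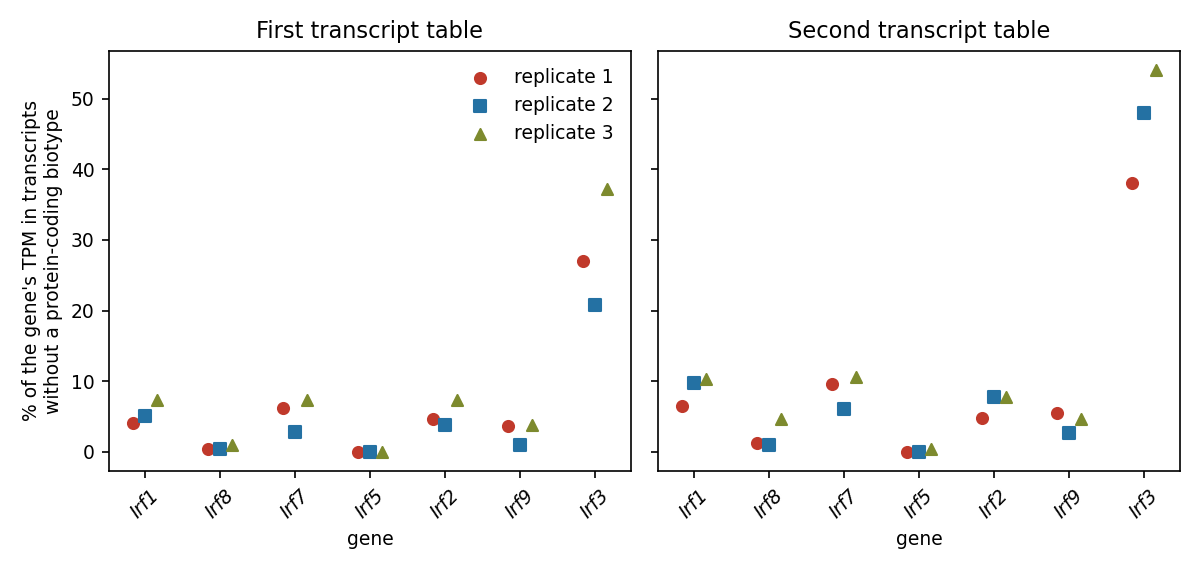
Percent of each gene's TPM in transcripts without a protein-coding biotype, in the first (left) and second (right) transcript table, for the 7 members with 2 or more transcripts and 1 TPM or more. Points are libraries; Irf3 lies at 20.8 to 37.1% in the first table and at 38.1 to 54.1% in the second, and the other 6 members lie at 10.6% or less.

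The pair of Irf4 transcripts, which differ by 3 bases at an internal exon start, gave no stable division. Irf4-201 took 32.9, 62.1 and 71.1% and Irf4-202 took 67.1, 24.5 and 29.0%, with few counts behind them. Other genes lie over several members: Gm17334 on the opposite strand of Irf1 with 192, 81 and 235 counts, Phrf1 at the end of Irf7, Tnpo3 at the end of Irf5 and Rnf31 at the start of Irf9. Gm20388, a model on the same strand that spans Irf8, held 1479, 5310 and 2530 counts, so its division of reads from Irf8 is uncertain.

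The totals of the members were compared between the gene table and the second transcript table, summed per gene, after scaling both to nuclear protein-coding genes. Irf1 and Irf2 were higher in the second, while Irf8, Irf7, Irf5, Irf2bp2, Irf9 and Irf3 lay within 0.955 to 1.05 times the gene table (plot of the tables' ratio). Irf2 had 1.17, 1.22 and 1.22 times its gene-table level in replicates 1, 2 and 3. Irf4 had 0.978, 0.963 and 1.72 times, on few counts. Irf1 had 1.09, 1.38 and 1.22 times, a spread between libraries that 3.33% of the 7331 genes compared reached.

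In replicate 2 the Irf1 difference lay mainly in 1 transcript. Irf1-208, which lacks exon 7 of Irf1-202 (123 bases, chr11:53774346-53774468), had 1.54, 25.6 and 1.92 TPM in the second transcript table and 0.16, 0.11 and 0.07 TPM in the first. Without it, the second transcript table gave 1.07, 1.01 and 1.13 times the gene table. Replicate 1 stayed the highest library for Irf1 in the second table, at 2.15 times the lowest in TMM-scaled CPM. Which table divides these reads correctly was not tested.

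**Figure D5:**
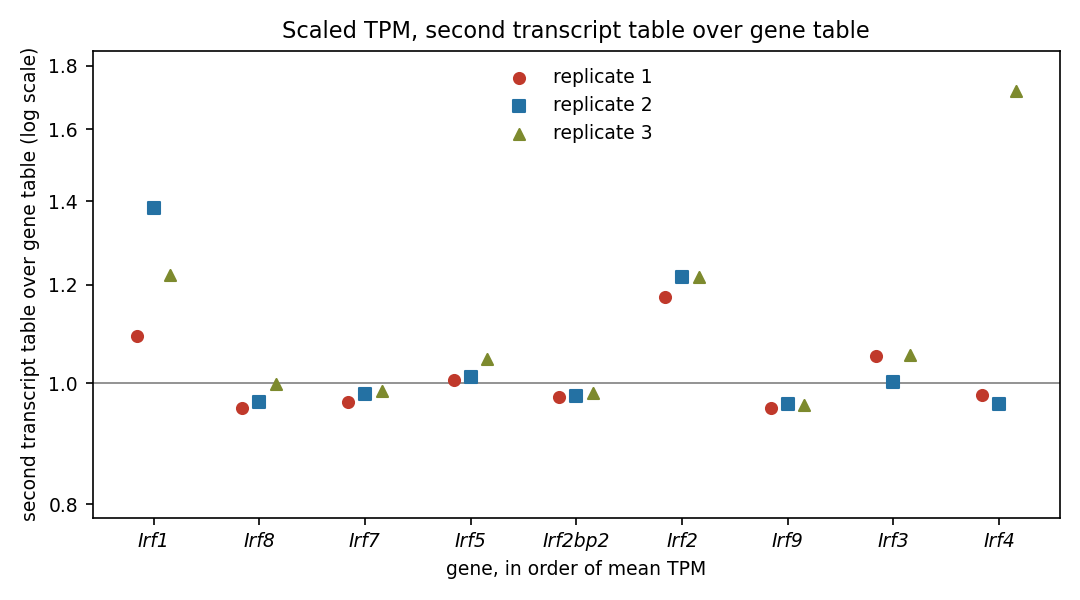
TPM of each member summed in the second transcript table over the gene table (log axis), both scaled to nuclear protein-coding genes, in replicates 1, 2 and 3. Points are libraries; Irf1 spans 1.09 to 1.38, Irf2 1.17 to 1.22, and Irf4 reaches 1.72 in replicate 3.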

How the data were processed

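Total RNA of 3 libraries was analysed. Per the labels and file headers, each library came from the authors with 1 gene table and 2 transcript tables, the first laid out like the gene table, on mm10 with GENCODE M21. The aligner, quantifiers and strand setting were not given in the sources used here. The deposited expected counts and estimated counts are reads per gene or transcript shared out by the authors' estimators, not normalized. The deposited TPM values divide by length and by the total of all rows. The deposited percent values are shares of transcripts within their gene. The headers carry a posterior SD of the counts, which was 0 for 7 members.

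Of 81881 gene rows, 55536 matched the annotation and the others were left out. Expected counts were rounded, scaled with TMM factors (edgeR 4.0.16, R 4.3.3) and tested for more than Poisson spread by a chi-square index of dispersion, with Benjamini-Hochberg adjustment over all genes whose mean count was at least 10. Deviations used a prior count of 0.5. With 1 group no differential expression was tested. The chi-square script was tested on simulated Poisson counts with some genes changed. That check does not cover libraries that differ by more than Poisson spread in most genes, as these do. DESeq2 1.42.0 size factors, other filters, pseudocounts and scalings, the second table and leaving out each library were alternatives. Python 3.11.15, scipy 1.17.1 and matplotlib 3.10.9 were used. Floors of 3 counts were 0.128, 0.0595 and 0.0838 CPM of library total in replicates 1, 2 and 3. Intervals and floors cover counting error only.

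The members and gene lists were chosen with earlier results of these data known. Genes were named by rule: every member and its family, the 2 highest and the lowest gene by mean TPM of each pathway list, the highest of each marker list, and the 3 genes nearest to the member of highest TPM and to the most dispersed member, which were both Irf1. Tbk1, Spi1, Stat2 and Ifnb1 were added afterwards, as were the ratios between members, the ratio of the tables, the rescaled ranges of neighbouring members and the left-out libraries for target genes. The planned protein features were not analysed here, and some values the rule names are not reported here.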

Additional observations from a re-analysis of the deposited data

How the results depend on the processing

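Irf7 stayed called under every alternative run, and Irf1 under all but leaving out replicate 1. In the second transcript table, 3 members had 10 TPM or more in every library in place of 8, and 4 of the 8 neighbouring pairs kept 1 order in place of 7. Besides Irf8 and Irf7, the order broke for Irf7 and Irf5 and for Irf9 and Irf3 in replicate 3. It also broke for Irf2bp2 and Irf2 in replicate 2, at 23.7 and 24.0 TPM. Order within a library does not depend on rescaling. TPM before rescaling was lower in the second transcript table for all 9 members, and the cause was not tested. With both tables scaled to nuclear protein-coding genes, the median gene had 0.99, 0.99 and 1.00 times its gene-table level in replicates 1, 2 and 3. The second transcript table also placed 4 members, Irf2, Irf4, Irf8 and Irf9, highest in replicate 2 and 1 in replicate 3, in place of 2 and 2. It put Irf8 at -0.014 on the log2 CPM scale in replicate 3, below its mean. The median deviation over all genes tested there was -0.041, 0.094 and -0.046 in replicates 1, 2 and 3, so genes in general leaned to replicate 2. Leaving out each library in turn gave 4 to 6 members called in place of 8, and 4374 to 7564 genes in place of 8984. The low end in each came without replicate 2, the deepest library. Between replicates 1 and 3, Irf5, Irf2bp2 and Irf2 then had ratios of 1.01, 1.02 and 1.03. The part of depth in the lower numbers was not tested. The percent of genes called was 56.7, 33.4 and 53.0% without replicates 1, 2 and 3. Without replicate 1, 4 members were highest in replicate 2 and 5 in replicate 3, since only those libraries remain. Over the libraries left out, 3 to 4 members were highest in replicate 2 and 3 to 5 in replicate 3. The log2 difference of Irf8 minus Irf7 ran from -0.12 (without replicate 3) to 0.25 (without replicate 1). Without a filter on low counts 10064 of 21855 genes were called, and with a mean count of 100 or more 7649. DESeq2 size factors gave 8955, TMM over nuclear protein-coding genes 8874 and the estimated counts of the second transcript table called 11281 of 15513. Of the values of single members under the alternatives, 151 lay within 1 SD of or kept the main value, 29 moved by more and 2 reversed. These numbers do not measure robustness. Leaving out 1 of 3 libraries cannot move a mean by 1 SD, so such values had to stay within it unless their sign changed. The rescaled TPM values moved with the change of scale. No paired analysis was possible because there is 1 group and hence no pairs between groups; members were compared within libraries. Depth limits Irf4, on 89 to 259 counts.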
